A study of Mus musculus with 3 samples.

Results

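Levels of 10 genes of CD8 T cells and cytotoxic lymphocytes were examined in sorted cells of mice bearing kidney tumors, out of 36835 genes with a level in all 3 RNA-sequencing libraries. The genes were chosen by name, with earlier results of these data known, and no threshold on a level was used. They are Cd8a and Cd8b1 for the CD8 co-receptor, Gzma, Gzmb and Gzmk for granzymes, Prf1 and Nkg7 for the lytic granule, and Klrd1, Ncr1 and Klrb1c for receptors of natural killer (NK) cells. The mice were of strain BALB/C and carried tumors of Renca, a mouse renal carcinoma line, growing in the kidney (the study's text names the derivative Renca Ch+ L+), and no library from mice without tumors was analysed here. Sorting used antibodies to CD45.2, TCRbeta, CD4, CD11b and the macrophage antigen encoded by Emr1, with no antibody to CD8 or to an NK receptor. The labels name 3 groups, each of 1 library, and the study's methods give their gates. They are M1 (type-1 macrophages, intermediate for the Emr1 antigen and high for CD11b) and M2 (type-2 macrophages, high for the Emr1 antigen and intermediate for CD11b) from tumors, and CD4 (T cells positive for TCRbeta and CD4) from spleens. The labels give 30 harvested tumors and 4 spleens and name both day 14 and day 16, and they name both spleen and tumor for the CD4 library. With 1 library from pooled animals per group, no difference below has a replicate error and no test between groups was made.

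Cytotoxic lymphocytes kill by releasing granules at a contact with the target cell. Perforin opens the target membrane and granzymes, which are serine proteases, enter and start cell death. CD8 marks the T cells that recognise MHC class I, and it is normally absent from CD4 T cells, while NK cells read MHC class I and stress ligands through lectin-like receptors encoded together on mouse chromosome 6. Macrophages are not a usual source of granzymes, perforin or CD8 beta.

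The names of the libraries were checked first. T-cell genes, 10 in number, all peaked in the M2-labelled library, at 72.9 to 434 FPKM (fragments scaled to transcript length and to the mapped reads of a library). In the libraries labelled M1 and CD4 these genes were at 3.39 FPKM or below, except Cd4, at 15.2 FPKM in the CD4-labelled library. All 9 macrophage genes were lowest in the M2-labelled library, with summed levels of 309 FPKM there, 6543 in the CD4-labelled one and 2331 in the M1-labelled one. The defining markers therefore go against the names M2 and CD4, and the libraries are named by their labels throughout. Ptprc, which encodes the CD45 antigen used in the sort, was at 285 FPKM in the M2-labelled library, 125 in the CD4-labelled one and 193 in the M1-labelled one. Depth was estimated from the table as 60300000 to 73000000 fragments per library.

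Under the rule used for the levels, each transcript was read from its first row with a value in all 3 columns and the rows of a gene were summed. So read, 8 of the 10 genes were highest in the M2-labelled library, Klrb1c was highest in the M1-labelled one, and Prf1 in the CD4-labelled one. Their median was 3.45 FPKM in the M2-labelled library, 0.0899 in the CD4-labelled one and 0.1 in the M1-labelled one. The table also holds rows with a value in only 1 column and a dash in the others, and 13 of the 36 rows of these genes were of that kind, 10 of them in the column headed M2. With every row summed and a dash taken as 0, 9 genes were highest in the M2-labelled library, since Prf1 joined the other 8. Counts of genes highest in a library, here and below, are given without the share of all genes highest there. How the 3 assemblies were joined was not stated, so both readings are given for the 10 genes, and for several other genes that differ. Summing all rows also put some genes far above the first reading. In the M2-labelled library Cd5 went from 81.3 to 11066 FPKM and Elane from 0.351 to 723. C1qb went from 1481 to 6644 FPKM in the CD4-labelled one. Levels by all rows, that of Prf1 included, are therefore uncertain. Levels are by the first complete row unless all rows are named. These are bulk libraries, in which fewer cells of a type and less RNA per cell cannot be told apart.

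**Figure D1:**
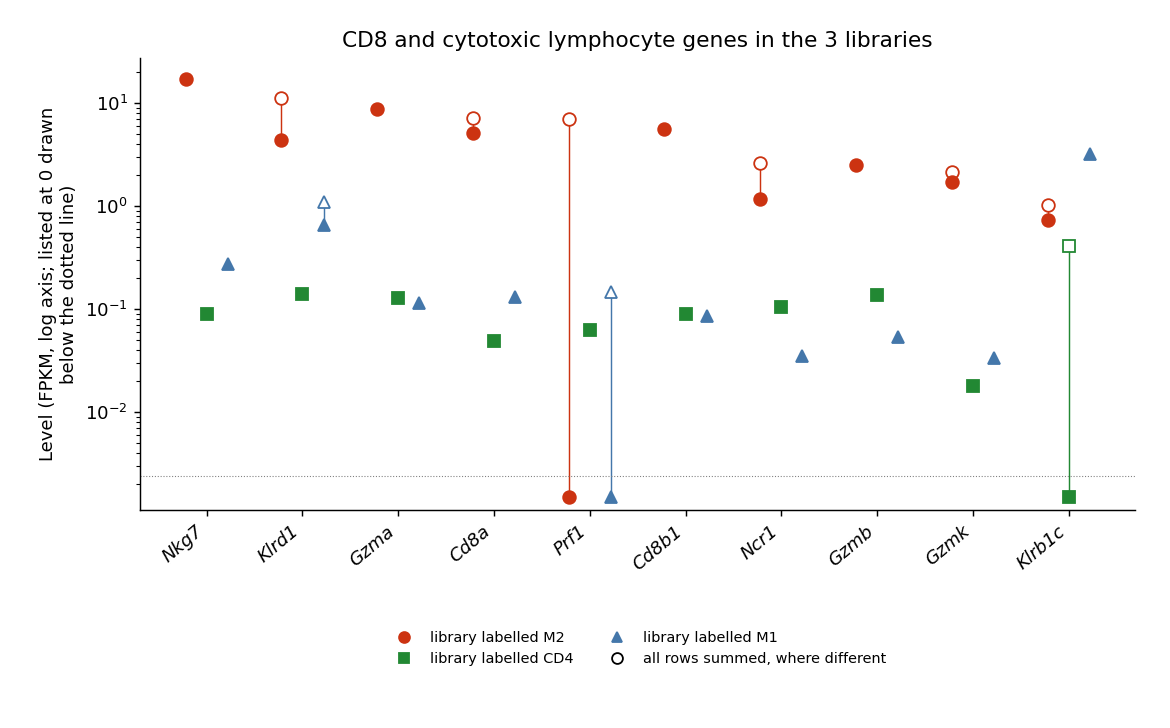
Levels of the 10 genes (FPKM, log axis) in the libraries labelled M2 (circles), CD4 (squares) and M1 (triangles), by the first complete row (filled) and by all rows where that differs (open). In the M2-labelled library, 8 genes lay at 1.18 to 17.1 FPKM, while filled points of the other libraries stayed at 0.656 FPKM or below, except Klrb1c at 3.18 in the M1-labelled one.

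The 2 chains of the CD8 co-receptor were described first. Cd8a, which encodes CD8 alpha, lies on the forward strand of chromosome 6 from 71323421 to 71329165 (build NCBIM37, also called mm9) and was at 5.18 FPKM in the M2-labelled library, 0.0494 in the CD4-labelled one and 0.132 in the M1-labelled one. Cd8b1, which encodes CD8 beta and ends 35.9 kb before Cd8a on the same strand, stood at 5.59 FPKM there, 0.0896 in the CD4-labelled one and 0.0854 in the M1-labelled one. The 2 chains were thus near to each other in level within the M2-labelled library, and both were low in the other libraries. Of the 51-base windows of the annotated Cd8b1 transcript 5.7% also occur in protein-coding transcripts of other genes, the only ones searched, whereas none of Cd8a did.

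Cd8a has 2 annotated transcripts that differ by 1 coding exon, which matters because the table splits the gene between them. Cd8a-201 carries exon 4, of 31 bases at 71325882 to 71325912 of chromosome 6, and has a coding sequence of 744 bases with its stop codon. Cd8a-202 skips it, and its coding sequence has 669 bases. Skipping gives the short CD8 alpha prime chain, whose cytoplasmic tail is truncated. The stretch around the exon is shown, with the exon in capitals.
Cd8a-201: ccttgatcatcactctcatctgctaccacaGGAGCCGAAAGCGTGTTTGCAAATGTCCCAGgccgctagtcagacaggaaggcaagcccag
Cd8a-202: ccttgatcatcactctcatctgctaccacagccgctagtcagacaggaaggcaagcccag
In the M2-labelled library, Cd8a-201 was at 3.56 FPKM and Cd8a-202 at 1.62 FPKM. A further row of Cd8a-201, with a dash in the other columns, stood at 2 FPKM there and raised the gene to 7.18. In the libraries labelled CD4 and M1, Cd8a-201 was listed at 0 and all of the level lay in Cd8a-202. The split there rests on few fragments, about 25 for the whole gene in the M1-labelled library and 11 in the CD4-labelled one.

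Granzymes were examined next. Gzma, a tryptase of NK cells and cytotoxic T cells (chromosome 13, 113884033 to 113891187, reverse strand), was at 8.69 FPKM in the M2-labelled library, 0.128 in the CD4-labelled one and 0.115 in the M1-labelled one. Gzmk, a tryptase of memory T cells that lies 70.6 kb from Gzma on the same strand (113961816 to 114016116), was at 1.71, 0.0179 and 0.0334 FPKM. Of its level in the M2-labelled library, 0.604 FPKM lay in Gzmk-003, a transcript annotated as nonsense-mediated decay, as did all of that in the CD4-labelled one. Gzmb, the protease that cleaves caspases and Bid (chromosome 14, 56877693 to 56881097, reverse strand), was at 2.51, 0.137 and 0.0534 FPKM. All 3 were highest in the M2-labelled library, with Gzma first, then Gzmb, then Gzmk. The coding sequences of these granzymes shared 55.4 to 59.5% of the bases of the longer one. None of their 51-base windows occurs in a protein-coding transcript of another gene, so reads of that length tell these granzymes apart. Other transcripts were not searched. The annotated span of Gzmk holds Esm1 on the other strand, and strand was not stated for the counting.

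Prf1 showed how much the reading of the table matters. It encodes perforin (chromosome 10, 60760584 to 60767011, forward strand) and has 1 annotated transcript. Its complete row listed 0 FPKM in the M2-labelled library, 0 in the M1-labelled one and 0.0631 in the CD4-labelled one. A second row held 7.04 FPKM in the column headed M2 alone, and another held 0.146 FPKM in that headed M1 alone. By all rows Prf1 was therefore at 7.04 FPKM in the M2-labelled library, above Cd8b1 and below Cd8a, and its log2 ratio to the CD4-labelled library went from -0.09 to 2.92. Srgn, the granule proteoglycan of leukocytes, was also listed at 0 in the complete rows of all 3 libraries. By all rows it was at 2.6 FPKM in the M2-labelled library, 0 in the CD4-labelled one and 0.378 in the M1-labelled one. The reason for such zeros was not tested.

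Nkg7, a membrane protein of lytic granules (chromosome 7, 50692443 to 50693616, forward strand), had the highest level of the 10 genes in the M2-labelled library. It was at 17.1 FPKM in the M2-labelled library, 0.0902 in the CD4-labelled one and 0.272 in the M1-labelled one. In the M2-labelled library it lay above 81.2% of the genes with a level above 0. The corresponding shares were 67.6% for Gzma, 59.3% for Cd8b1 and 57.9% for Cd8a, so that the CD8 chains sat near the middle of that library and not at its top.

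Promoters of the granule genes Nkg7, Gzmb and Prf1 are shown because these genes shared a direction by all rows. Gzma and Gzmk had the same direction, and their promoters were searched but are not printed. RefSeq sequences of the 250 bases before the start (build GRCm38.p6, not the build of the table) were found for 8 of the 10 genes, Cd8b1 and Klrd1 having no entry. A RUNX motif (TGTGGT, on either strand) was in 6 of the 8, namely Gzma, Gzmb, Prf1, Nkg7, Ncr1 and Klrb1c, and in 15.9% of 27025 genes. A T-box motif (GGTGTGA) was in 2 of the 8, Gzmk and Nkg7, and in 3.84% of all. An ETS motif (AGGAAGT) was in 1 of the 8, Prf1, and in 8.8% of all. RUNX and T-box factors are known regulators of cytotoxic genes, and a match of letters is a description and not a binding site. Below, the motifs are in capitals and each sequence reads 5′ to 3′ on the strand of its gene.
Nkg7, chr7:43436888-43437137, forward strand: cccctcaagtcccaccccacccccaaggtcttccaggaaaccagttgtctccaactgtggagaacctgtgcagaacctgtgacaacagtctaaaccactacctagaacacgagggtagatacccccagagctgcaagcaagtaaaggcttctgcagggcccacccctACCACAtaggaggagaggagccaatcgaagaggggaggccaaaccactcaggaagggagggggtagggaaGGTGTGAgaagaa
Gzmb, chr14:56262335-56262584, reverse strand: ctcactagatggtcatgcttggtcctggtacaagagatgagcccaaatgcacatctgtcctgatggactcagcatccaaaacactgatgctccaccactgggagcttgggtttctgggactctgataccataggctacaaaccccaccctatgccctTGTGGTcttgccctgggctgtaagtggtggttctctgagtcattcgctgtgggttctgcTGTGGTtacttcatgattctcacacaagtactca
Prf1, chr10:61297586-61297835, forward strand: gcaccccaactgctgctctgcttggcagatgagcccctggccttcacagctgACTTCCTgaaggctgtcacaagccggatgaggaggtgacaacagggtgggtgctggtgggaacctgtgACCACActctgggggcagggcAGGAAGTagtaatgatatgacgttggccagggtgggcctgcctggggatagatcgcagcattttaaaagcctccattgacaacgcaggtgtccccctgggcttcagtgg
In Nkg7 the RUNX motif began 83 bases and the T-box motif 13 bases before the start. Gzmb held the RUNX motif 93 and 34 bases before its start, and Prf1 held it 130 bases before the start, beside ETS motifs at 198 and 109 bases. Klrb1c, whose level was highest in another library, also held a RUNX motif.

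NK receptor genes did not all share this order. Klrd1, which encodes CD94, the partner chain of NKG2 receptors (chromosome 6, 129541800 to 129548793, forward strand), was at 4.38 FPKM in the M2-labelled library, 0.14 in the CD4-labelled one and 0.656 in the M1-labelled one. By all rows it was at 11.1, 0.14 and 1.1 FPKM. Ncr1, which encodes the NK receptor NKp46 (chromosome 7, 4289326 to 4296766, forward strand), was at 1.18, 0.104 and 0.035 FPKM, and by all rows at 2.62 in the M2-labelled library. All of the level of Ncr1 in the CD4-labelled library lay in Ncr1-002, a transcript annotated as retained intron. By the first complete row Ncr1-002 held 0.344 FPKM in the M2-labelled library, and the protein-coding Ncr1-001 held 0.832. Both Klrd1 and Ncr1 were highest in the M2-labelled library in either reading.

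Klrb1c, a lectin-like receptor of NK cells (chromosome 6, 128728503 to 128739233, reverse strand), was at 3.18 FPKM in the M1-labelled library and 0.735 in the M2-labelled one, and it was listed at 0 in the CD4-labelled one. All rows together gave 3.18, 1.03 and 0.405 FPKM, so that the M1-labelled library stayed highest. Most of its level in the M1-labelled library, 2.84 FPKM, lay in Klrb1c-002, a transcript of 901 bases whose start is not annotated, and 0.333 FPKM lay in Klrb1c-001. Of the 51-base windows of Klrb1c 4.73% occur in transcripts of Klrb1a, Klrb1b or a related pseudogene, and its coding sequence shared 78.1% of its bases with that of Klrb1a and 71.6% with that of Klrb1b. Reads of this family could therefore be divided between its members in part.

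Other genes of this family, chosen after their values were seen, had the same order at the top. Klrb1a was at 1.75 FPKM in the M1-labelled library, 0.226 in the CD4-labelled one and was listed at 0 in the M2-labelled one. Klrb1b was at 3.5 and 0.837 FPKM and again listed at 0, and by all rows at 12 and 2.07 FPKM. Klrb1f was at 4.19 FPKM in the M1-labelled library, 0.348 in the CD4-labelled one and 0.809 in the M2-labelled one. None of its 51-base windows is shared with a protein-coding transcript of another gene. Receptors of other families, also chosen after their values were seen, were Cd244, Klrg1, Klrc1 and Klrk1. Cd244, found on NK cells and on some myeloid cells, was at 6.51 FPKM in the M1-labelled library, 0.525 in the CD4-labelled one and 1.03 in the M2-labelled one. By all rows Cd244 was at 30.8, 7.02 and 2.36 FPKM, so that its log2 ratio of M2 to CD4 turned from 0.41 to -1.25 while the M1-labelled library stayed highest. Klrg1, a receptor of effector T cells and NK cells, instead stood at 3.43 FPKM in the M2-labelled library and at 0.0133 and 0.0121 FPKM in those labelled M1 and CD4. Klrk1 was nearly level between M2 and M1, at 3.05 and 2.7 FPKM, and at 0.853 in the CD4-labelled library. Klrc1 was low throughout, at 0.181 FPKM in the M2-labelled library and at 0.00388 and 0.0101 in those labelled M1 and CD4. Of the 25 other NK receptors and adaptors listed, 15 were highest in the M2-labelled library, 4 in the M1-labelled one and 4 in the CD4-labelled one, so that the genes highest in M1 were a minority. Among the 15 were Il2rb, a chain of the receptors for IL-2 and IL-15, at 45.9 FPKM, Cd7 at 22 and Cd226, an activating receptor, at 13.3, also chosen after their values were seen.

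**Figure D2:**
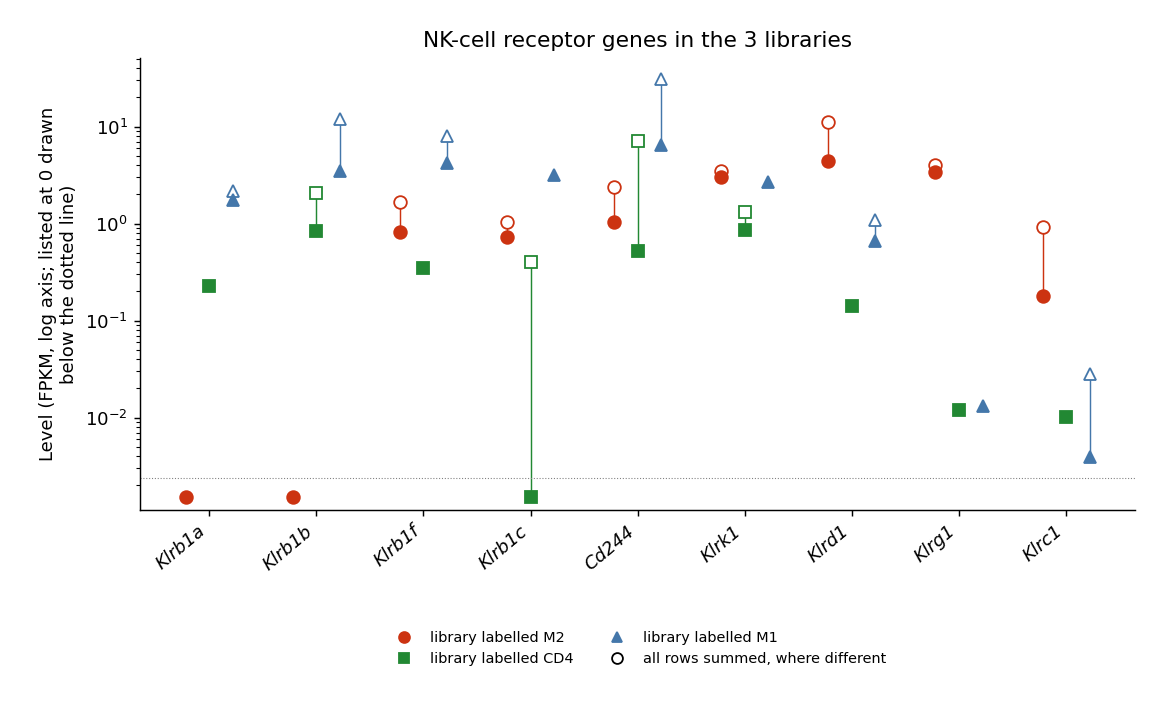
Levels (FPKM, log axis) of Klrb1c and Klrd1 beside 7 other NK-cell receptor genes across M2-, CD4- and M1-labelled cells, with symbols as in the plot of the 10 genes. Klrb1a, Klrb1b, Klrb1f, Klrb1c and Cd244 were highest in the M1-labelled library, from 1.75 to 6.51 FPKM by the first complete row, and Klrd1, Klrg1, Klrc1 and Klrk1 were highest in the M2-labelled one. Klrk1 was so by little, at 3.05 FPKM against 2.7 in the M1-labelled one.

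Differences between libraries were set beside those of all genes, on the log2 scale of FPKM + 1, which understates the change of low genes. Between the libraries labelled M2 and CD4, 7 of the 10 genes were at least 2-fold higher in M2 and 0 were lower, while 11.0% of the 36835 genes were past 2-fold, 5.85% higher in M2 and 5.17% higher in CD4. All 4059 genes past 2-fold were among the 12438 that reached 1 FPKM in either library. A gene below 1 FPKM in both cannot be past 2-fold on this scale, so the share over all genes is lower than over those 12438. With levels rescaled to the same total, 3469 genes were higher in M2 and 2065 in CD4, against 2156 and 1903 as deposited. That rescaling multiplied levels by 3.45 in M2 and 3.07 in CD4 and kept the added 1, so it also acts as a smaller constant. Scaling by the median ratio gave 2005 higher in M2 and 1996 in CD4. As deposited, the median log2 ratio was 1.93 for the 10 genes and 0.12 for the 12438 genes that reached 1 FPKM in either library. Ncr1 fell just short at 0.98, and Klrb1c was at 0.79 and Prf1 at -0.09. By all rows 9 of the 10 genes were past 2-fold, all higher in M2, and their median was 2.76. In that reading 4838 of 36936 genes were past 2-fold, 2853 higher in M2 and 1985 higher in CD4.

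Between the libraries labelled M2 and M1, 8 of the 10 genes were at least 2-fold higher in M2 and Klrb1c was lower, with a log2 ratio of -1.27. Of all genes 10.6% were past 2-fold, 5.73% higher in M2 and 4.90% higher in M1. All 3916 of them were among the 12443 genes that reached 1 FPKM in either library. The rescaled counts were 3508 higher in M2 and 1912 higher in M1, against 2110 and 1806 as deposited. Scaling by the median ratio gave 2021 and 1868. As deposited, the median log2 ratio of the 10 genes was 1.72, and that of the 12443 genes that reached 1 FPKM in either library was 0.10. These ratios ran from 1.07 for Ncr1 to 3.83 for Nkg7 among the 8 genes. The comparisons of M2 with CD4 and with M1 share the M2-labelled library.

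Between the libraries labelled CD4 and M1, 0 of the 10 genes were at least 2-fold higher in CD4 and Klrb1c was past 2-fold in the other direction, at -2.06. Of all genes 4.47% were past 2-fold here, 2.20% higher in CD4 and 2.28% higher in M1. All 1648 of them were among the 11587 genes that reached 1 FPKM in either library. The other 9 genes lay between -0.54 for Klrd1 and 0.11 for Gzmb, with a median of -0.01 over the 10. Both libraries held high levels of macrophage genes.

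**Figure D3:**
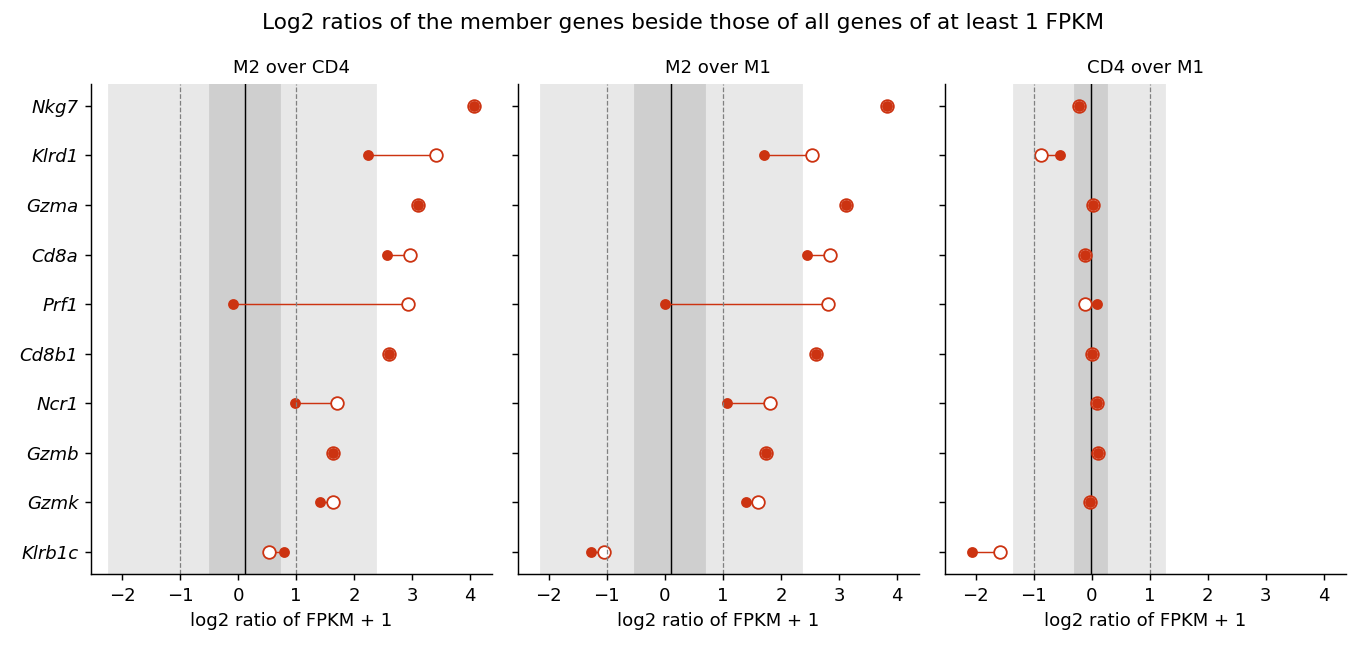
Log2 ratio of FPKM + 1 for each of the 10 genes in the 3 comparisons, by the first complete row (filled) and by all rows (open), with the median (line), the central 50% (dark band) and the central 90% (light band) of genes of at least 1 FPKM in either library and dashed lines at a 2-fold difference. Nkg7, Gzma, Cd8a and Cd8b1 lay beyond the light band in both comparisons with M2, at 2.45 or more, and 9 genes lay between -0.54 and 0.11 in the comparison of CD4 with M1.

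Depth set the precision of these levels. At the estimated depths, 3 fragments on a transcript of 1000 bases give 0.0497 FPKM in the M2-labelled library, 0.0411 in the CD4-labelled one and 0.0489 in the M1-labelled one. In the M2-labelled library the levels of the 8 genes correspond to about 101 fragments for Gzmk up to 975 for Cd8a. By the first complete row none of the 10 genes had more than 14 fragments in the CD4-labelled one, and in the M1-labelled one the range was 0 to 26 apart from 191 for Klrb1c. By all rows Klrb1c had 78 in the CD4-labelled library and Klrd1 had 51 in the M1-labelled one. All intervals given here are exact 95% intervals from these estimated counts and cover counting error only.

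The ratio of the M2-labelled library to the CD4-labelled one was 105 for Cd8a (interval 58.4 to 211), 62.4 for Cd8b1 (32.6 to 137) and 67.8 for Gzma (34.1 to 158). It was 190 for Nkg7 (87 to 519), 31.2 for Klrd1 (16.1 to 69) and 18.3 for Gzmb (10.7 to 34.1). The ratio of Ncr1 was 11.3 (6.08 to 23.4), and that of Gzmk was 95.4 with an interval of 16.7 to 3803, since about 1 fragment stood behind its level in the CD4-labelled library. By all rows the ratio was 25.2 for Ncr1 (13.8 to 51.2), 79 for Klrd1 (41.3 to 174) and 112 for Prf1 (58.5 to 245). Counting error alone thus left the ratios of these genes above 1. Against the M1-labelled library, by the first complete row, those of the 8 genes ran from 6.67 for Klrd1 (4.44 to 10.4) to 75.6 for Gzma (34.5 to 207), and that of Klrb1c was 0.231 (0.16 to 0.327). Between CD4 and M1 the intervals spanned 1 for Cd8b1, Gzma, Gzmb, Gzmk and Ncr1. Cd8a, at 0.373 (0.166 to 0.786), Klrd1, at 0.214 (0.0883 to 0.471), and Nkg7, at 0.332 (0.104 to 0.919), were lower in the CD4-labelled library than in the M1-labelled one beyond counting error.

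**Figure D4:**
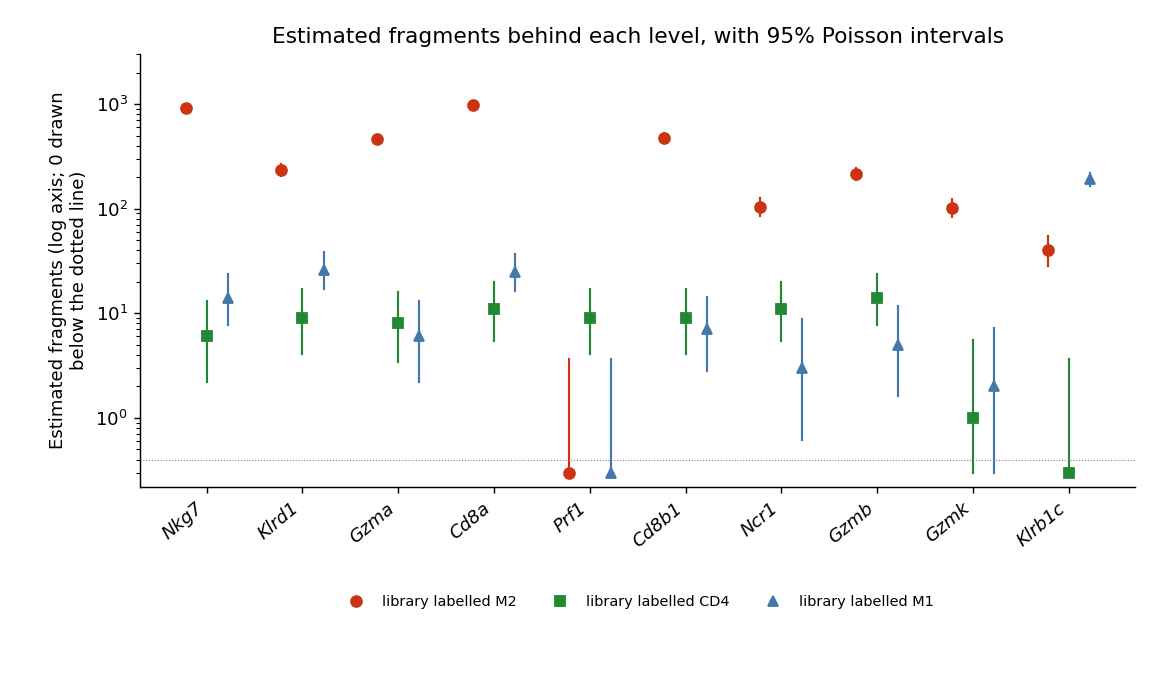
Estimated fragments behind each level by the first complete row (log axis), with exact 95% Poisson intervals as bars, for the libraries labelled M2 (circles), CD4 (squares) and M1 (triangles). Outside the M2-labelled library only Klrb1c in the M1-labelled one, with 191 fragments, had more than 26.

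The levels were also set beside T-cell genes of the same library. In the M2-labelled library, Cd8a was at 3.12% and Cd8b1 at 3.36% of the level of Cd4, and Nkg7 at 13.6%, Gzma at 6.91% and Gzmb at 2% of the level of Cd3e, a chain of the CD3 complex. In the libraries labelled CD4 and M1, Cd3e itself was at 0.141 and 0.131 FPKM. There Cd8a stood at 35.1% and 101% of Cd3e, Cd8b1 at 63.7% and 65.1%, and Gzma at 91.3% and 87.6%, with about 6 to 25 fragments behind each member level. The order depended on the gene of comparison. As shares of Cd4, which stood at 15.2 FPKM in the CD4-labelled library, Cd8a, Cd8b1 and Gzma were at 0.326%, 0.591% and 0.847% there, below their 3.12%, 3.36% and 5.23% in the M2-labelled one. In the M1-labelled library, where Cd4 was at 0.87 FPKM, these shares were 15.2%, 9.81% and 13.2%, above those in the M2-labelled one. As a share of Ptprc, Cd8a was at 1.82% in the M2-labelled library, 0.0396% in the CD4-labelled one and 0.0686% in the M1-labelled one.

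Genes that work beside these 10 were described by 5 lists, written with earlier results of these data known. The shares of all genes set beside the list counts include genes below 1 FPKM in both libraries, which could not be past 2-fold. Those shares are by the first complete row. By all rows, 2853 of 36936 genes were higher in M2 and 1985 in CD4 when these were compared. Between M2 and M1 by all rows, 2806 were higher in M2 and 1877 in M1. Of 7 other granzymes, Gzmd, Gzme, Gzmf, Gzmg and Gzmn were listed at 0 in all 3 libraries. Gzmc, whose coding sequence shared 77% of its bases with that of Gzmb, was at 1.26 FPKM in the M2-labelled library, 0.0623 in the CD4-labelled one and listed at 0 in the M1-labelled one, and it was the 1 list gene past 2-fold in both comparisons with M2. Gzmm was at 0.391, 0.178 and 0.144 FPKM.

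Genes for packaging and release of granules went both ways. Of 12 genes, 6 were at least 2-fold above the CD4-labelled library in the M2-labelled one and 2 were lower, beside 5.85% and 5.17% of all genes, and the median log2 ratio was 0.88. The counts against M1 were also 6 and 2, beside 5.73% and 4.90% of all genes. By all rows they were 8 and 2 against CD4 and 7 and 2 against M1. Ctsw, a cathepsin of cytotoxic lymphocytes chosen after its values were seen, was at 21 FPKM in the M2-labelled library and at 0.0914 and 0.0649 in those labelled CD4 and M1. Ctsc, which activates granzymes and also serves myeloid cells, was at 13.2, 127 and 115 FPKM. Lamp1, a lysosomal membrane protein of most cells, was at 186, 734 and 380 FPKM, and Ctsl, a lysosomal cathepsin, at 189, 327 and 253. Stxbp2, which serves granule fusion in lymphocytes and other cells, was at 28.2, 39.7 and 42.7 FPKM. Lamp1, Ctsl and Ctsc were thus higher in the libraries labelled CD4 and M1, and Ctsw was higher in the M2-labelled one.

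Among 25 other NK receptors and adaptors, 7 were at least 2-fold above the CD4-labelled library in the M2-labelled one and 3 were lower, beside 5.85% and 5.17% of all genes, with a median of 0.26. Against M1 the counts were 6 and 7, beside 5.73% and 4.90% of all genes, and the median was 0.13. By all rows the counts were 9 and 5 against CD4 and 8 and 7 against M1. The 3 lower genes by the first complete row were Tyrobp and Fcer1g, signalling adaptors of NK and myeloid cells, and Fcgr3, an Fc receptor of both. Tyrobp was at 68, 700 and 688 FPKM across M2-, CD4- and M1-labelled cells, Fcer1g at 32.3, 530 and 498, and Fcgr3 at 9.51, 296 and 97.2. Hcst, the adaptor of the receptor NKG2D, was at 49.2, 6.38 and 6.27 FPKM. Klra8 and Cd160 were listed at 0 in the complete rows of all 3 libraries, and by all rows Cd160 was at 2.75 FPKM in the M2-labelled one.

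Transcription factors gave a further split. Of 11 found, 6 were at least 2-fold above the CD4-labelled library in the M2-labelled one and 2 were lower, beside 5.85% and 5.17% of all genes. Against M1 the counts were 5 and 4, beside 5.73% and 4.90% of all genes. By all rows they were 5 and 3 against CD4 and 5 and 4 against M1. Eomes, a T-box factor of NK cells and memory CD8 T cells, was at 1.66, 0.0263 and 0.0203 FPKM across M2-, CD4- and M1-labelled cells, and Tbx21, which encodes T-bet, was at 4.21 and 0.0295 FPKM and listed at 0. Runx3, the RUNX factor of CD8 T cells and also of myeloid cells, went the other way, at 3.59, 16.5 and 23.4 FPKM. Zbtb7b, which encodes the CD4-lineage factor ThPOK, was at 32.1, 6.88 and 22.3 FPKM, but by all rows at 40.1, 29.3 and 35.5, where its log2 ratio of M2 to CD4 went from 2.07 to 0.44 and was no longer past 2-fold. Gata3 was at 16, 1.38 and 0.807 FPKM, Ikzf3 at 14.5, 0.0503 and 0.0834, and Tcf7, which encodes the T-cell factor TCF1, at 250, 0.0939 and 0.344. Zeb2, Id2, Nfil3 and Prdm1 were at 7.59, 54.9, 7.36 and 1.07 FPKM in the M2-labelled library, and each was higher in the M1-labelled one, at 53.2, 167, 26.8 and 2.16. By all rows Prdm1 was instead highest in the CD4-labelled library, at 8.7 FPKM against 2.69 in the M2-labelled one, which was past 2-fold. Eomes and Tbx21 were thus low beside Tcf7 and Zbtb7b in the same library.

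Of 10 secreted and death-ligand effectors, 7 were at least 2-fold above the CD4-labelled library in the M2-labelled one and 1 was lower, beside 5.85% and 5.17% of all genes, with a median of 1.62. Against M1 the counts were 6 and 0, beside 5.73% and 4.90% of all genes. By all rows Ccl4 joined Ccl3 among the lower genes against CD4, at a log2 ratio of -1.10. Ifng, the cytokine of type-1 responses, and Fasl, the ligand of the death receptor Fas, both chosen after their values were seen, were at 2.52 and 2.89 FPKM in the M2-labelled library and at 0.0368 or below in the others. Ltb, a lymphotoxin of lymphocytes, was at 217, 2.95 and 17.4 FPKM. Ccl5, a chemokine of T cells, NK cells and macrophages, was at 34.1, 11.6 and 21.2 FPKM, while Ccl3 and Ccl4, chemokines of NK cells and macrophages, were at 15.2 and 13.4 FPKM in the M2-labelled library against 33.4 and 27.7 in the CD4-labelled one and 28.9 and 20.4 in the M1-labelled one.

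**Figure D5:**
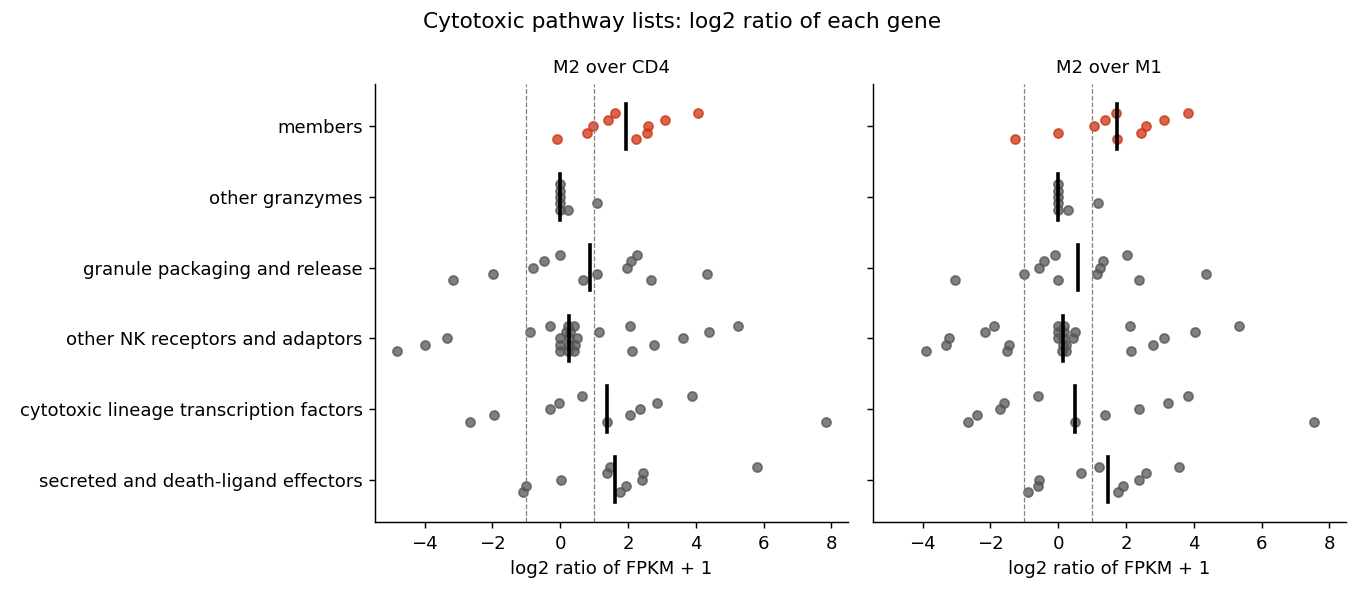
Log2 ratio of FPKM + 1 for each gene of the 10 and of the 5 pathway lists, between the libraries labelled M2 and CD4 (left) and M2 and M1 (right), with black bars at list medians and dashed lines at a 2-fold difference. Medians ran from 0.00 for the other granzymes to 1.93 for the 10 genes on the left, and NK receptors and adaptors spread widely in both directions.

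Markers of other cell types were mostly, but not all, highest in the M2-labelled library as well. Of 8 B-cell genes, 6 were highest in the M2-labelled library, with a summed level of 65.6 FPKM there against 0.547 and 0.482 in those labelled CD4 and M1, and Cd79b and Pax5 were listed at 0 in the M2-labelled library, where Pax5 was at 6.49 FPKM by all rows. The sum over the 10 CD8 and cytotoxic genes was 47.1, 0.82 and 4.56 FPKM in the same order. Of 8 neutrophil genes, 7 were highest in the M2-labelled library, with sums of 227, 10.6 and 50.2 FPKM, S100a9 leading at 110, and Ly6g was listed at 0 there and at 1.26 by all rows. By all rows Elane went from 0.351, 0.0143 and 0.0152 FPKM to 723, 336 and 366. Of 8 genes of mast cells and basophils, which can also express granzyme B, all were highest in the M2-labelled library at 0.139 to 0.55 FPKM. None of them could be past 2-fold on the scale used, since each was below 1 FPKM in all 3 libraries, so that count says nothing of their difference. By all rows Cpa3 was at 2.06 FPKM in the M2-labelled library. In that reading it was the 1 gene of the 8 past 2-fold, higher in M2 than in the libraries labelled CD4 and M1. Dendritic cell genes summed to 86.5, 101 and 90.3 FPKM, of which Bst2 made up 59.2, 97.6 and 63.9. Of these 8 genes, 5 were highest in the M2-labelled library, with medians of 2.86, 0.482 and 0.353 FPKM, and Siglech, of plasmacytoid dendritic cells, was at 13.2, 0.28 and 0.286. The genes of kidney and Renca epithelium summed to 210, 97.9 and 79.2. Of these 8 genes, 6 were highest in the M2-labelled library, Epcam in the M1-labelled one and Slc34a1 in the CD4-labelled one. Of 6 genes of innate lymphoid and gamma delta T cells 4 were found, with sums of 124, 4.1 and 12.3 FPKM. The part of such cells in the levels of the 10 genes was not tested.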

How the data were processed

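RNA of sorted cells was measured in 3 libraries, 1 per group, assigned by the titles in the labels. The authors aligned paired reads of 51 bases to mm9 with Bowtie and TopHat, used Cufflinks guided by Ensembl release 67, and deposited transcript levels in FPKM, and the submitters' processing notes also name Cuffdiff. Of 92519 transcript identifiers 90316 were matched to GENCODE models of NCBIM37 (Ensembl release 65, the assembly of mm9). Per identifier the first row with values in all 3 columns was kept, and rows were summed per gene. A gene was past 2-fold where log2 of FPKM + 1 differed by 1 or more between libraries. No test fitted 1 library per group, and counts past 2-fold are set beside the share of all genes. Depth was estimated from single-transcript genes of 2500 to 8000 bases, taking the commonest small product of level and length as 1 fragment. That estimate gives approximate counts only, since Cufflinks divides fragments by a model.

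The members and lists were chosen with earlier results of these data known. The genes named were the 10 members, the 4 most abundant of each pathway list, those listed at 0 in all libraries, the transcription factors, cell type markers and Ptprc. Other names are said to be chosen after their values were seen. Of the list genes 3 were not found. Alternatives were a pseudocount of 0.1, a minimum of 1 FPKM, all rows summed, 2 other scalings and protein-coding genes only. Scripts were tested on simulated data and used scipy 1.17.1, pandas 2.3.3 and numpy 2.4.6 under Python 3.11.15, with plots by matplotlib 3.10.9.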

Additional observations from a re-analysis of the deposited data

Results flagged for a closer look

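A level above that of 3 fragments stood in rows that the rule for the 10 genes leaves out, because they carry a dash in another column. In the column headed M2 these rows held 7.04 FPKM for Prf1, 2 for Cd8a-201, 2.77 and 3.94 for Klrd1-002, 0.453 for Gzmk-002, 0.295 for Klrb1c-003, 0.355 and 0.83 for Ncr1-001, and 0.257 for Ncr1-002. In the column headed M1 they held 0.146 FPKM for Prf1 and 0.439 for Klrd1-002, and in that headed CD4 0.405 for Klrb1c-003. Prf1 is the gene whose direction between the libraries labelled M2 and CD4 depended on them. No group had more than 1 library, so that single samples could not be compared within a group.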

How the results depend on the processing

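No paired analysis was possible because each group had 1 library, and for the same reason no library could be left out. The count of genes highest in the M2-labelled library was 8 or 9 under the settings tried. With a pseudocount of 0.1 the genes past 2-fold numbered 6581 for M2 against CD4, 6526 for M2 against M1 and 3184 for CD4 against M1, in place of 4059, 3916 and 1648. The median log2 ratio of the 10 genes then went to 4.08 and 3.93 in the comparisons of M2 with CD4 and M1, by the smaller constant. It was 2.76 and 2.57 with all rows summed and 3.13 and 2.85 after rescaling to a total of 1000000. Between CD4 and M1, 2 of the 10 genes were past 2-fold with the pseudocount of 0.1 and after rescaling, and with a minimum of 1 FPKM the median was -2.06 over the 1 gene left, Klrb1c. Scaling by the median ratio left these values within 1.5 times, and so did keeping protein-coding genes only for the counts over all genes, to which that setting was limited. Among the 10 genes, none that was past 2-fold as reported turned its direction, while Prf1, which was not, went from -0.09 to 2.92 for M2 against CD4 with all rows summed.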
